A study of Mus musculus with 5 samples.

Results

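The Schlafen genes of the mouse were followed across the immune cells of Lewis lung carcinoma tumours. The 7 genes Slfn1, Slfn2, Slfn3, Slfn4, Slfn5, Slfn8 and Slfn9 were taken by their symbols out of the 32285 genes of each deposited matrix. Tumours were grown in the flanks of mice from the injected line Lewis Lung Carcinoma, which derives from a lung tumour of the mouse. The cells carried a guide RNA against the Notch ligand gene Jag2 (genotype JAG2KO, 2 libraries) or a scrambled control (genotype Scramble, 3 libraries). The mice's own cells, including the immune cells measured here, were not the edited ones, and the labels give no clone, strain, sex, age or collection time. Live cells carrying CD45, the surface protein of blood-derived cells, were sorted at the endpoint and profiled by droplet-based sequencing of transcript 3′ ends, in which each molecule is counted once by a unique molecular identifier (UMI). Nothing says whether libraries of a group came from separate mice, so p-values measure the spread between libraries, which may be technical.

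Schlafen proteins share an RNA-binding core that in several members cuts transfer RNA, and the long members add a helicase-like part. Several Schlafen genes of the mouse are induced by type I interferon, which acts through the kinases Jak1 and Tyk2 and whose target genes often carry the interferon-stimulated response element. Slfn2 keeps T cells and monocytes from leaving quiescence, Slfn4 is a gene of myeloid cells, Slfn1 restrains T cell growth, and Slfn5, Slfn8 and Slfn9 encode the long forms.

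All 7 genes lie within 263806 bases of chromosome 11 (chr11:82951349-83215154, GRCm38), in the order Slfn5, Slfn9, Slfn8, Slfn2, Slfn1, Slfn4 and Slfn3. Slfn9 and Slfn8 are on the minus strand and the others on the plus strand. The promoters of the long members and of the 3 genes highest in neutrophils below are shown as 160 bases that end just before the start of transcription in RefSeq (GRCm38.p6), read 5′ to 3′ on the strand of the gene. In the first 3, capitals mark the letters GAAANNGAAA or their reverse complement, the core of the interferon-stimulated response element. In the last 3, capitals mark ACTTCCTG, which holds the core bound by ETS factors and was chosen after the letters had been read.
Slfn5 (chr11:82951942-82952101, plus strand): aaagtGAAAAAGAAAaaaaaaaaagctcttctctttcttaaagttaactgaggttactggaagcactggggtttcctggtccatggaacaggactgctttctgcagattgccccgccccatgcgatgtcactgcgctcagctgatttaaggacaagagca
Slfn8 (chr11:83020811-83020970, minus strand): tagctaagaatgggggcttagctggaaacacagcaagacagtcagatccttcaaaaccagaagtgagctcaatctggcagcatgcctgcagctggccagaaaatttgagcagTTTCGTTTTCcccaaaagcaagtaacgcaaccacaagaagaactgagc
Slfn9 (chr11:82991831-82991990, minus strand): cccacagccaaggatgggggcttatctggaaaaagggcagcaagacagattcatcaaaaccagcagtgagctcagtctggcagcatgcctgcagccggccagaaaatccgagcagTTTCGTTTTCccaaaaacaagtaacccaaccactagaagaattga
Slfn4 (chr11:83175026-83175185, plus strand): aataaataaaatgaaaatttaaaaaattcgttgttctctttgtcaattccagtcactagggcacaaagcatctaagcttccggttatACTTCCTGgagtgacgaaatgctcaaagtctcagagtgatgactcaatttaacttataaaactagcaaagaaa
Slfn1 (chr11:83116660-83116819, plus strand): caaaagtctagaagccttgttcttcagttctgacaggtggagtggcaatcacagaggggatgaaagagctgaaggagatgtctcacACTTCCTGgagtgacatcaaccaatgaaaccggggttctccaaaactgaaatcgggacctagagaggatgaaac
Slfn2 (chr11:83064952-83065111, plus strand): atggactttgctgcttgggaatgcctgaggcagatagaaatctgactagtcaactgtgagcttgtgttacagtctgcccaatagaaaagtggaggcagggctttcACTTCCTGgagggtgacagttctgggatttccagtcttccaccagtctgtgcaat

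Promoter windows ran from 250 bases before to 50 bases after the start, and both strands were searched. Positions count from the start to the first base of the match. Slfn8 has a second start in RefSeq, from which the match given below is at -136. The RefSeq start of Slfn5 lies inside the gene as placed by GENCODE, which begins at 82951349. The letters of the interferon element were found in Slfn5 at position -155, in Slfn8 at -48 and in Slfn9 at -45. They were not found in the windows of Slfn1, Slfn2, Slfn3 and Slfn4. They occurred in 3.44% of 32851 promoter windows of the mouse. ACTTCCTG was found in Slfn1 at -74, Slfn4 at -73, Slfn2 at -55 and Slfn3 at -42, where its reverse complement also stands at -60. These letters occurred in 3.33% of windows and in none of Slfn5, Slfn8 and Slfn9. Since they were chosen from these promoters, setting the members against that share is no test. TTCNNNGAA, a palindrome known from promoters that respond to interferon gamma, was in no window of the 7 genes and in 8.3% of all windows.

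Libraries held between 10262 and 21854 barcodes, and 7563 to 17791 cells each were kept. Median depth was 8529.5 and 2135 UMIs per cell in JAG2KO libraries 1 and 2, against 7637.5 to 7841 in the Scramble libraries, so JAG2KO 2 stood apart with the most cells and the lowest depth. Pairs of libraries shared 26 to 74 barcodes. Jag2 itself was at 3.56 and 2.21 UMIs per 1000000 UMIs of the cells summed (CPM) in JAG2KO, against 3.96, 2.98 and 4.28 CPM in Scramble. The sort was meant to leave out the edited tumour cells. Still, 51 and 150 cells in JAG2KO and 12, 10 and 6 in Scramble were gated as fibroblast or tumour. These cells had no Jag2 UMI in any library, so the Jag2 counts above come from other cells and do not check the labels. Cells were assigned to classes by UMIs of at least 2 marker genes, none of them a Schlafen gene. In macrophage sums all 6 macrophage markers were detected at a summed level of 7030 and 6587 CPM in JAG2KO and 7396 to 7687 CPM in Scramble. Neutrophil sums held 9168 and 11023 CPM of their markers in JAG2KO and 9551 to 11057 CPM in Scramble.

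The kept cells held 85203 UMIs of Slfn2, 30706 of Slfn5, 10546 of Slfn4, 8592 of Slfn1, 8288 of Slfn9, 6941 of Slfn8 and 844 of Slfn3. Slfn2 made up 56.4% of all Schlafen UMIs and Slfn3 0.558%. These are counts of molecules from 3′ ends, not divided by length. Slfn14, the neighbour at the far end of the cluster, had 4 UMIs and Slfn5os, which runs antisense over Slfn5, had 1. Members are close copies in part: of the words of 50 bases in the last 500 transcript bases, Slfn8 shared 25.5% with other Schlafen genes, Slfn9 15.8% and Slfn3 15.7%. Slfn8 shared 22.3% with the pseudogene Slfn10-ps and 13.8% with Slfn9, and Slfn9 shared 13.7% with Slfn10-ps and 8.28% with Slfn8. All shared words of Slfn3 were found in transcripts of Slfn4. The counts of Slfn8 and Slfn9, and the split of reads between Slfn3 and Slfn4, are thus uncertain. The last 500 bases of Slfn1, Slfn2, Slfn4 and Slfn5 held no word of another Schlafen gene.

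Schlafen expression differed by cell class, with neutrophils and classical monocytes above macrophages for most members. Each class was compared with macrophages within libraries by the quasi-likelihood test of edgeR, and 6 members could be tested, since Slfn3 was too low. In neutrophils 5 members were higher than in macrophages and in classical monocytes 5 were, where 77.1% and 57.4% of 7229 genes differed in either direction. Because most genes differed between these classes, the counts of members say little by themselves.

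Slfn4 had the steepest gradient. Its level was 753 and 739 CPM in JAG2KO neutrophils, against 571, 835 and 528 CPM in Scramble neutrophils. Classical monocytes held 67.7 and 39.8 CPM in JAG2KO, against 127, 183 and 147 CPM in Scramble. Macrophages held 9.23 and 6.46 CPM in JAG2KO, against 15.3, 22.4 and 19.8 CPM in Scramble. The ranges of neutrophils, monocytes and macrophages did not overlap, while macrophages, regulatory T cells, migratory dendritic cells and other T cells overlapped with their neighbours in this order. The log2 fold change over macrophages was 6.41 ± 0.24 (SE, n = 5 libraries) in neutrophils and 3.03 ± 0.21 in monocytes (edgeR, adjusted p = 3.64e-24 and 2.93e-15). No UMI of Slfn4 was found in cDC1 (type 1 conventional dendritic cells) of any library, where 3 counts in the sums of 7 to 19 cells would amount to 16.3 to 35.7 CPM.

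Counted by cell, at least 1 UMI of Slfn4 was seen in 78 of 167 and 102 of 224 JAG2KO neutrophils, against 261 of 609, 358 of 645 and 272 of 643 Scramble neutrophils. In macrophages the numbers were 457 of 6846 and 305 of 13153 in JAG2KO, against 627 of 6308, 1067 of 6939 and 725 of 5367 in Scramble. With cells thinned to 1000 UMIs, 72 of 6733 and 90 of 10675 JAG2KO macrophages kept a UMI, against 138 of 6220, 211 of 6691 and 144 of 5268 Scramble macrophages. Other T cells, which should lack the gene, had 1 of 142 and 0 of 171 cells in JAG2KO, against 1 of 54, 0 of 40 and 1 of 33 in Scramble, at median depths of 1238 to 2238 UMIs. Macrophages had medians of 9834 and 2481 UMIs in JAG2KO and 9287 to 9520 in Scramble. Free neutrophil RNA was gauged from S100a8, a protein of the neutrophil cytosol: at the share of neutrophil S100a8 found in macrophages, Slfn4 would stand at 0.434 and 0.926 CPM in JAG2KO macrophages, against 0.623, 1.52 and 0.713 CPM in Scramble macrophages, which is below the measured level in each library. The same reckoning gave 0.443 and 1.22 CPM in JAG2KO monocytes and 2.03, 4.53 and 4.82 CPM in Scramble monocytes. It rests on S100a8 alone. The 6 neutrophil markers summed to 146 and 110 CPM in JAG2KO macrophages, against 9168 and 11023 CPM in JAG2KO neutrophils. In Scramble they summed to 75.5, 59.3 and 74.8 CPM in macrophages, against 9551 to 11057 CPM in neutrophils. These shares are larger than those of S100a8. By the same reckoning they would put Slfn4 above its measured level in the macrophages of each JAG2KO library. In each Scramble library they would put it below. The part of neutrophil RNA in the Slfn4 of macrophages was not tested.

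Among the 6 classes with at least 20 cells in every library, Slfn1 was likewise highest in neutrophils and then in classical monocytes, without overlap. Some smaller classes broke this order. CD4 T cells, 9 to 55 a library, averaged 116 ± 129 CPM (SD, n = 5) and ranged from 25.7 to 344 CPM, which overlapped with neutrophils and monocytes. Non-classical monocytes (0 to 174 CPM), CD8 T cells (27.7 to 108 CPM) and cDC1 (6.64 to 75.2 CPM) overlapped with classical monocytes. Neutrophils held 335 and 363 CPM in JAG2KO, against 334, 300 and 288 CPM in Scramble, and monocytes 78.4 and 60.9 CPM in JAG2KO, against 96.2, 132 and 117 CPM in Scramble. Macrophages held 13.6 and 9.06 CPM in JAG2KO, against 12.8, 19.1 and 17.9 CPM in Scramble. Over macrophages its log2 fold change was 5.21 ± 0.17 in neutrophils and 2.84 ± 0.15 in monocytes (SE, n = 5 libraries). NK, B and mast cells and plasmacytoid dendritic cells, which are small classes here, had no UMI of Slfn1 in any library, where 3 counts would amount to 13.2 to 294 CPM. Regulatory T cells and other T cells averaged 30.1 ± 15.4 and 26.6 ± 18.2 CPM and macrophages 14.5 ± 4.08 CPM (SD, n = 5), and each overlapped with the next.

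Slfn2 was detected in each of the 6 classes with at least 20 cells in every library. It averaged 715 ± 119 CPM in neutrophils, 438 ± 63.7 in classical monocytes, 208 ± 43.9 in macrophages, 171 ± 44.5 in other T cells, 137 ± 52.1 in regulatory T cells and 115 ± 52.5 in migratory dendritic cells (SD, n = 5). The first 3 did not overlap and the rest overlapped with their neighbours. In macrophages the level was 285 and 180 CPM in JAG2KO, against 181, 198 and 197 CPM in Scramble, so JAG2KO 1 was above and JAG2KO 2 just below all Scramble libraries.

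Slfn5 averaged 302 ± 103 CPM in classical monocytes, 171 ± 38.6 in neutrophils, 111 ± 84.9 in other T cells, 102 ± 53.9 in migratory dendritic cells, 64.7 ± 17.9 in macrophages and 62.4 ± 28.2 in regulatory T cells (SD, n = 5). Each class overlapped with the next in this order. Over macrophages it was higher in monocytes, by 2.31 ± 0.17, in neutrophils, by 2.08 ± 0.19, and in migratory dendritic cells, by 1.16 ± 0.26 (log2, SE, n = 5 libraries). Without JAG2KO 1 the last difference was 0.67 with an adjusted p of 0.112 in edgeR.

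Slfn8 and Slfn9, which share sequence, had another pattern. Slfn8 averaged 57.9 ± 26.9 CPM in other T cells, 49.7 ± 14.5 in classical monocytes, 46.4 ± 29.7 in regulatory T cells, 31.3 ± 10.7 in neutrophils and 16.0 ± 3.21 in macrophages (SD, n = 5), and only the step from neutrophils to macrophages was free of overlap among these. Migratory dendritic cells had 5 UMIs of Slfn8, all in JAG2KO 1. Slfn9 varied little between macrophages, at 20.5 ± 2.33 CPM, monocytes, at 21.5 ± 9.18, and other T cells, at 30.6 ± 9.04. Slfn9 was the one member tested that did not differ from macrophages in monocytes (log2 fold change 0.15 ± 0.14, 95% interval -0.13 to 0.44) and neutrophils (-0.64 ± 0.30, edgeR, adjusted p = 0.0516), although in neutrophils it passed with no filter on low counts (-0.72, adjusted p = 0.0223) and with doublets kept (-0.66, adjusted p = 0.0459).

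Outside these 2 classes, 1 member was higher than in macrophages and 3 lower in migratory dendritic cells (60.3% of genes differed), 2 higher and 1 lower in other T cells (58.1%), and 1 higher and 1 lower in regulatory T cells (54%). Slfn8 was higher in other T cells by 1.65 ± 0.28 and in regulatory T cells by 1.13 ± 0.35, and Slfn2 was lower, at -0.42 ± 0.17 in other and -0.88 ± 0.19 in regulatory T cells (log2, SE). Slfn1 was the other gene higher in other T cells, by 1.02 ± 0.39. In migratory dendritic cells the lower genes were Slfn9 (-2.67 ± 0.69), Slfn8 (-1.61 ± 0.64) and Slfn2 (-0.51 ± 0.18). Several of these calls rested on single libraries. In other T cells Slfn2 missed the threshold without JAG2KO 1 (edgeR, adjusted p = 0.14), JAG2KO 2 (0.0532) or Scramble 3 (0.0963), and Slfn1 missed it without JAG2KO 1 (0.315) or Scramble 1 (0.101) and in DESeq2 (0.0506). In migratory dendritic cells Slfn8 missed it without JAG2KO 2 (0.081), Scramble 2 (0.0648) or Scramble 3 (0.0828), and Slfn2 without JAG2KO 2 (0.0937). In regulatory T cells Slfn8 missed it without Scramble 1 (0.063). Thus 1 member was called in other T cells without JAG2KO 1, 2 in migratory dendritic cells without JAG2KO 2, and in regulatory T cells 1 without Scramble 1 and 4 without Scramble 2. Other settings added calls. Slfn4 passed as lower in other T cells with no filter on low counts (adjusted p = 0.000956), in DESeq2 (0.0438) and with a gate of 3 markers (0.0416). In regulatory T cells it passed as lower with no filter (0.00701) and without Scramble 2. Slfn1 passed as higher in regulatory T cells with a gate of 3 markers (0.045), in cells of at least 1000 UMIs (0.0475) and without Scramble 2 or 3.

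**Figure D1:**
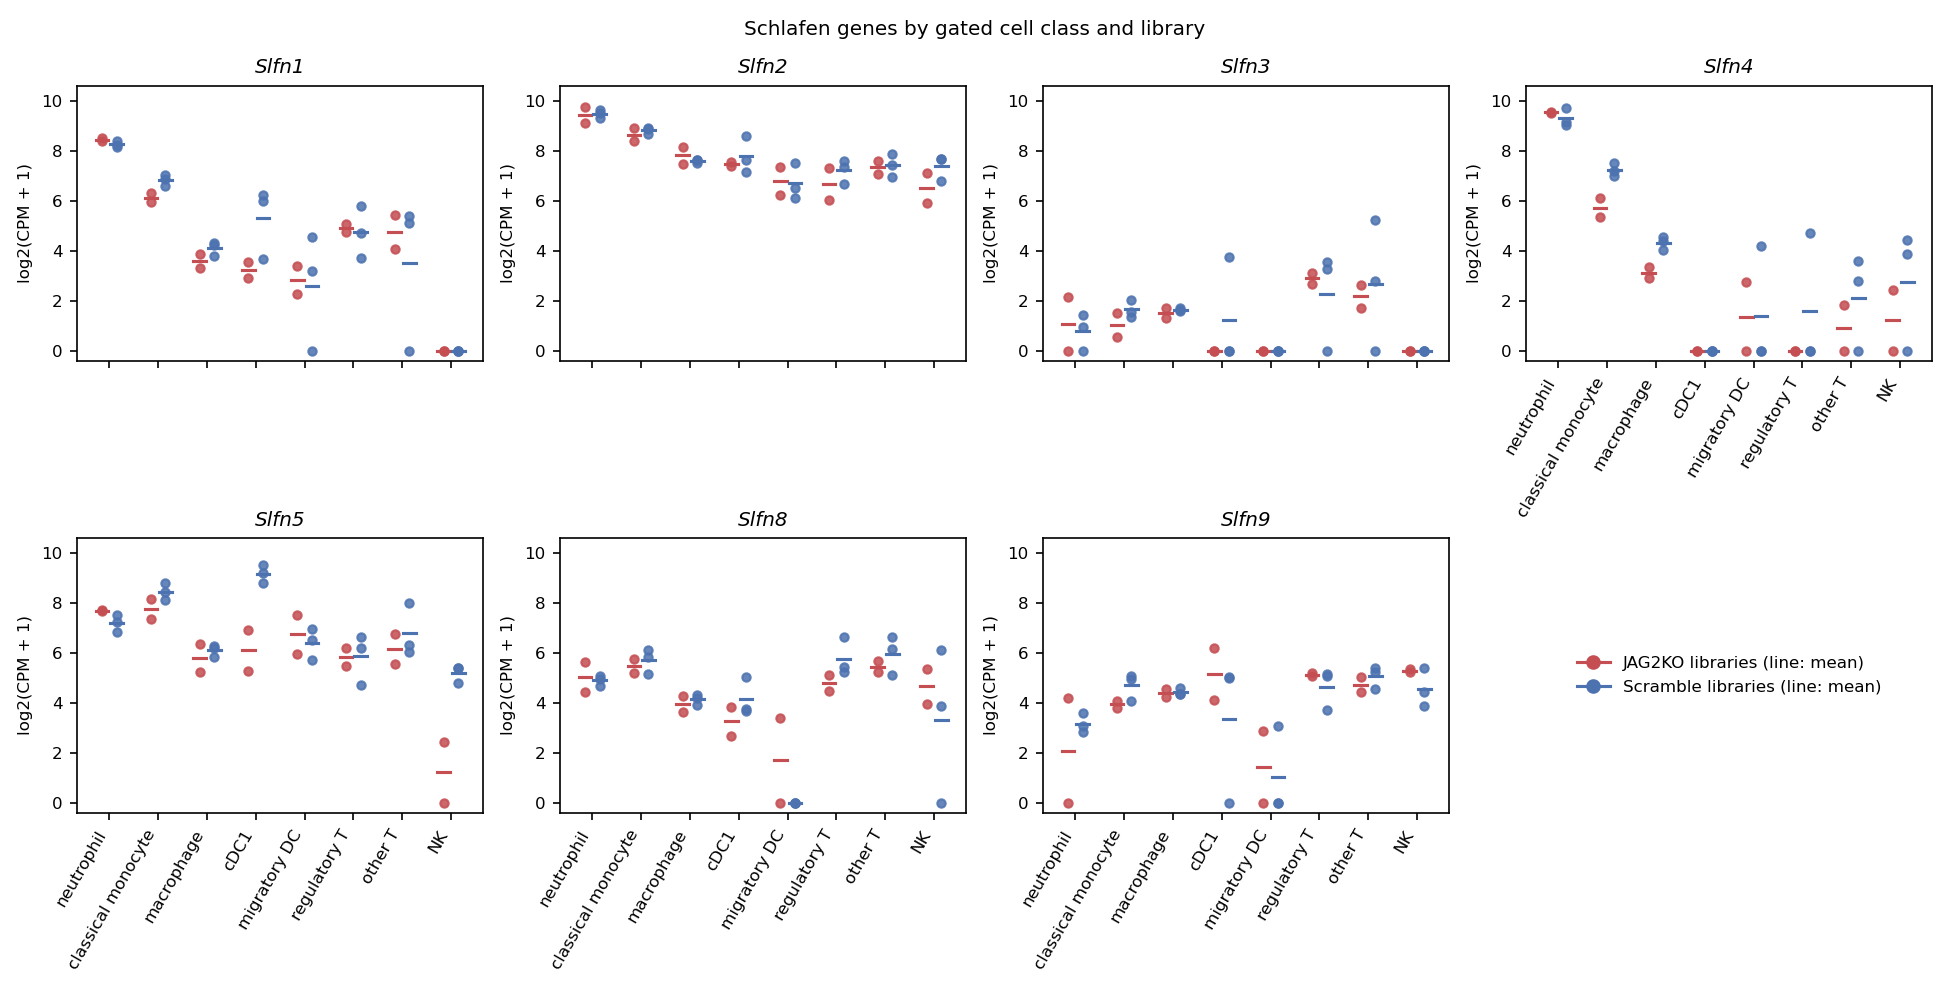
Level of each Schlafen gene as log2(CPM + 1) in 8 gated classes, with a point per library (red JAG2KO, blue Scramble) and a line at the mean of each group. Slfn4 and Slfn1 are highest in neutrophils and then in monocytes, with macrophages below both, while Slfn2 is found in every class and Slfn9 stays near 20 CPM in macrophages.

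The type I interferon response was then used to divide cells of 1 class. Cells were thinned to 1000 UMIs and called interferon-high with at least 2 UMIs, and interferon-low with 0 UMIs, of 30 interferon targets, none of them a Schlafen gene. Among macrophages 1317 of 6733 and 1815 of 10675 cells were high in JAG2KO, against 1238 of 6220, 1714 of 6691 and 1142 of 5268 in Scramble. All 7 members were higher in interferon-high than in interferon-low macrophages of the same library (edgeR, n = 5 libraries), where 16.8% of 12446 genes differed in either direction. The increase ranged from 3.23 ± 0.08 for Slfn1 to 0.51 ± 0.15 for Slfn3 on the log2 scale, with a median of 1.81 over the members and -0.02 over all genes tested.

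Slfn1 stood at 45.5 and 28.9 CPM in interferon-high macrophages of JAG2KO and at 45.6, 55.6 and 63.3 CPM in those of Scramble. In interferon-low macrophages it stood at 4.80 and 4.50 CPM in JAG2KO and 4.72, 5.91 and 5.54 CPM in Scramble, so high and low cells did not overlap. Slfn5 stood at 225 and 111 CPM in high cells of JAG2KO and 184, 201 and 247 CPM in those of Scramble. In low cells it had 40.3 and 20.9 CPM in JAG2KO and 24.4, 28.9 and 28.3 CPM in Scramble, a log2 difference between high and low cells of 2.76 ± 0.08. The increase was 2.25 ± 0.11 for Slfn4, 1.81 ± 0.09 for Slfn8, 0.85 ± 0.10 for Slfn9 and 0.67 ± 0.05 for Slfn2. Slfn5, Slfn8 and Slfn9 hold the letters of the interferon element in their promoter windows, and Slfn1, Slfn2, Slfn3 and Slfn4 do not. The part of these letters in the increase was not tested.

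Monocyte markers were higher in high than in low macrophages of every library but JAG2KO 2. They summed to 738 and 717 CPM in high cells of JAG2KO and 686 to 904 CPM in those of Scramble. In low cells the sums were 590 and 757 CPM in JAG2KO and 507 to 651 CPM in Scramble. Neutrophil markers summed to 76.7 and 74.1 CPM in high cells of JAG2KO and 53.5 to 70.1 CPM in those of Scramble. In low cells they summed to 198 and 132 CPM in JAG2KO and 60.5 to 93.0 CPM in Scramble. When macrophages with a UMI of any classical monocyte or neutrophil marker were left out, a choice made after seeing the data, the increase was 2.68 for Slfn1, 2.32 for Slfn5, 1.52 for Slfn8, 1.21 for Slfn4, 0.57 for Slfn9 and 0.52 for Slfn2, all past the threshold. The value of Slfn4 was thus smaller than the 2.25 in all macrophages. Slfn3 was at 0.53 with an adjusted p of 0.548 in edgeR and also missed the threshold in DESeq2 and without JAG2KO 2 or any 1 Scramble library.

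In neutrophils 4 of the 5 members tested were higher in interferon-high than in interferon-low cells, where 10.3% of 2780 genes differed. The filter on low counts keeps a gene that is high enough in the sums of 1 side alone. Slfn8, at 39.8 to 66.5 CPM in high and 0 to 19.3 CPM in low neutrophils, could enter in that way. The same holds for Slfn5. The count of members is thus partly set by the filter. Slfn5 stood at 413 and 318 CPM in high neutrophils of JAG2KO and 219, 289 and 282 CPM in those of Scramble. In low neutrophils it stood at 40.9 and 16.8 CPM in JAG2KO and 25.8, 16.8 and 41.4 CPM in Scramble, on 1 to 11 UMIs a library. Its log2 difference was 3.32 ± 0.23. The difference was 1.88 ± 0.43 for Slfn8, 1.70 ± 0.18 for Slfn4 and 0.86 ± 0.19 for Slfn1. Slfn2 did not pass the test (0.18 ± 0.16, 95% interval -0.13 to 0.49, edgeR, adjusted p = 0.51), and Slfn3 and Slfn9 were too low to be fitted.

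**Figure D2:**
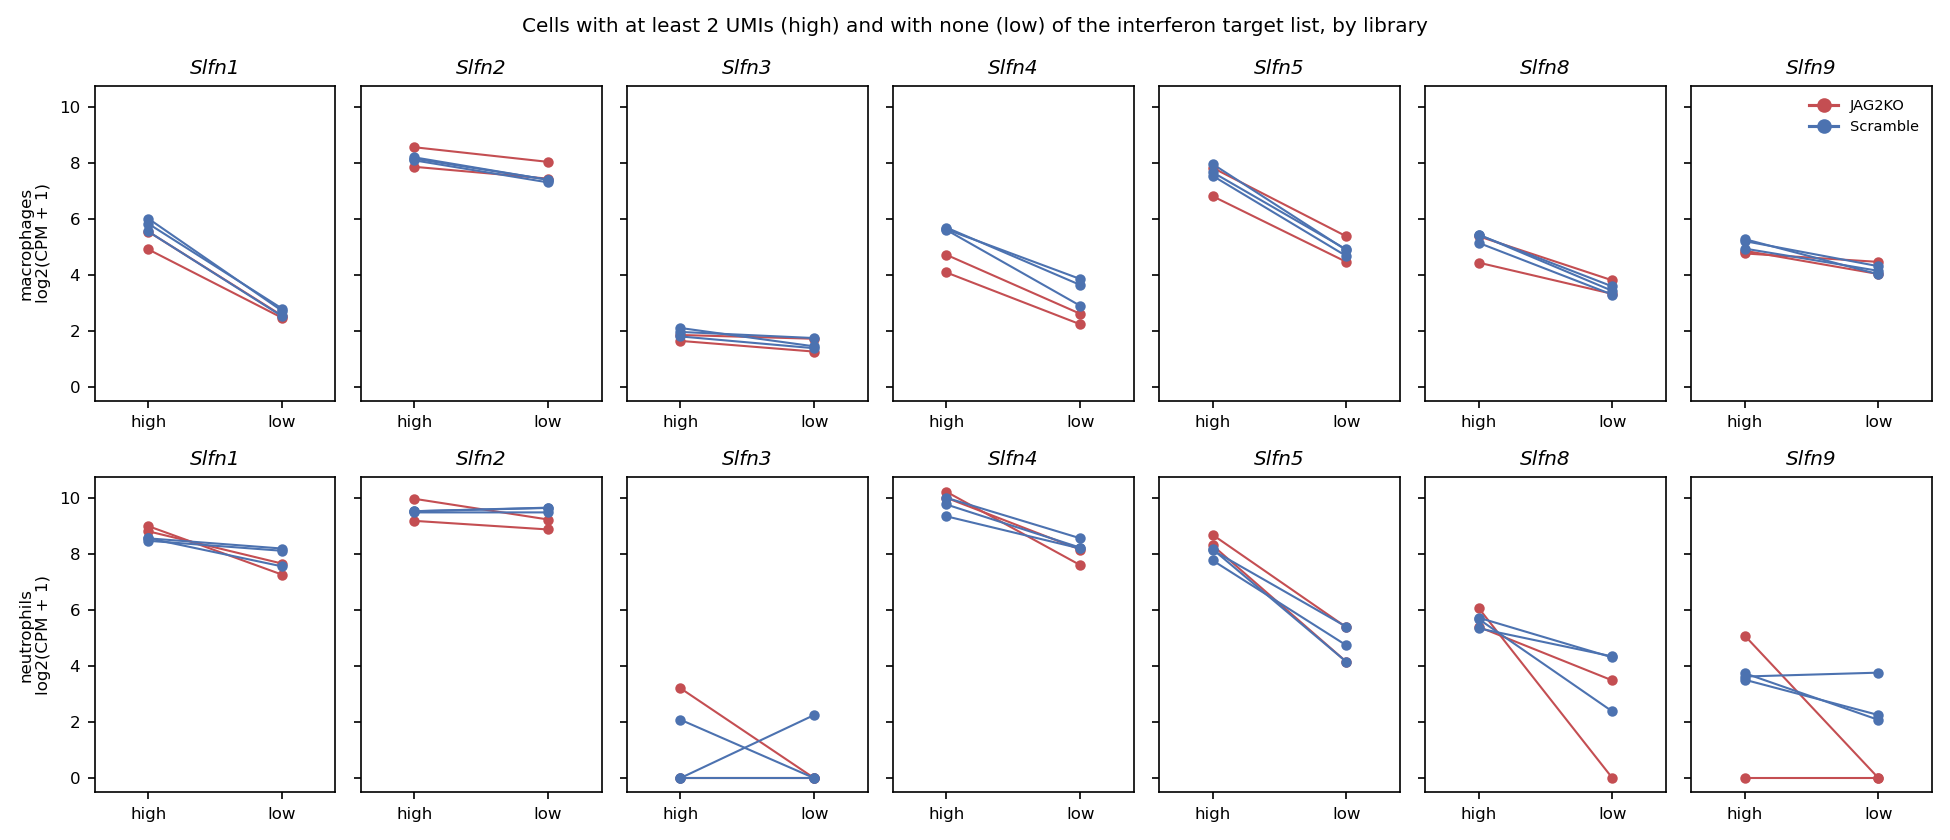
Level of each Schlafen gene as log2(CPM + 1) in interferon-high (left) and interferon-low (right) macrophages (upper row) and neutrophils (lower row), with a line joining both values of a library (red JAG2KO, blue Scramble). In macrophages every line of Slfn1, Slfn4, Slfn5 and Slfn8 drops to the right. In neutrophils the mean of Slfn2 goes from 796 CPM in high to 537 CPM in low cells of JAG2KO, and from 734 to 777 CPM in Scramble.

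JAG2KO was compared with Scramble within each class. The family was chosen by this contrast, since Slfn4 had been among the lower genes in monocytes and macrophages of the same libraries, so members in these classes are given as a description without a test. In both classes Slfn4 was lower in each JAG2KO library than in every Scramble library, at the levels given above. Its log2 fold change was -1.54 ± 0.22 in classical monocytes and -1.31 ± 0.20 in macrophages (SE, n = 2 and 3). With 1 library left out at a time it lay between -2.01 and -1.23 in monocytes and between -1.55 and -1.11 in macrophages. Over all genes, 0.693% of 9818 in monocytes and 2.14% of 14179 in macrophages passed the threshold. Whether a member passed is not read here, because this contrast chose the family. The share of all genes with both JAG2KO libraries below all Scramble libraries was not computed in these classes.

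In classical monocytes all 6 members fitted had negative log2 fold changes, with a median of -0.75 over them and 0.00473 over all genes tested. Slfn9 stood at -0.91 ± 0.29, Slfn1 at -0.78 ± 0.17, Slfn5 at -0.72 ± 0.24, Slfn8 at -0.29 ± 0.25 and Slfn2 at -0.22 ± 0.16. JAG2KO 2 was below JAG2KO 1 for each of them, and without it the value of Slfn2 was 0.00869. In Slfn1 both JAG2KO libraries were below all Scramble libraries, while Slfn5, at 285 and 163 CPM in JAG2KO against 274, 443 and 348 CPM in Scramble, overlapped. Monocyte markers in these sums were at 3654 and 3778 CPM in JAG2KO, against 4531 to 5215 CPM in Scramble. T cell markers summed to 18.4 and 61.8 CPM in JAG2KO monocytes, against 8.55 to 12.2 CPM in Scramble monocytes. Fibroblast or tumour markers summed to 18.4 and 100.2 CPM in JAG2KO, against 12.8 to 20.4 CPM in Scramble. The part of these markers in the values of the members was not tested.

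In macrophages the values were closer to 0. Slfn1 stood at -0.57 ± 0.21, Slfn5 at -0.26 ± 0.29, Slfn8 at -0.20 ± 0.20, Slfn3 at -0.16 ± 0.21, Slfn9 at -0.08 ± 0.12 and Slfn2 at 0.25 ± 0.17. Only Slfn1 and Slfn4 kept their sign with each library left out in turn. In macrophages with no UMI of a monocyte or neutrophil marker, Slfn4 stood at -1.14 ± 0.30 and Slfn1 at -0.21 ± 0.25. Slfn4 in these cells had 4.40 and 5.89 CPM in JAG2KO, against 8.0, 15.8 and 10.4 CPM in Scramble. The lower level of Slfn4 was seen in interferon-high macrophages, with 25.1 and 15.9 CPM in JAG2KO against 47.4, 48.1 and 50.3 CPM in Scramble, and in interferon-low ones, with 5.07 and 3.68 CPM in JAG2KO against 6.40, 13.4 and 11.4 CPM in Scramble. The groups did not overlap in either, and the share of all genes that separate in this way was not computed. Neutrophil markers in macrophages summed to 146 and 110 CPM in JAG2KO, against 76, 59 and 75 CPM in Scramble, and monocyte markers to 602 and 745 CPM in JAG2KO, against 530, 633 and 694 CPM in Scramble. T cell markers summed to 11.1 and 31.0 CPM in JAG2KO macrophages, against 3.53 to 6.32 CPM in Scramble macrophages. The part of these markers in the values was not tested.

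In neutrophils, which the choice of the family did not use, no member passed the test among 6 fitted, and 0.804% of 6471 genes passed. Slfn4 had a log2 fold change of 0.23 ± 0.21 (95% interval -0.19 to 0.65, edgeR, adjusted p = 0.812) and Slfn1 0.21 ± 0.21 (-0.20 to 0.61). Slfn5 had 202 and 207 CPM in JAG2KO neutrophils, against 114, 180 and 152 CPM in Scramble neutrophils, with both JAG2KO libraries above the Scramble ones. An exact two-sided permutation test of this separation gave p = 0.2, the smallest that 10 splits allow. The share of all genes that separate in this way in neutrophils was not computed. The log2 fold change of Slfn5 was 0.48 ± 0.23, with an adjusted p of 0.507 in edgeR. It was the 1 member of 6 with an unadjusted p under 0.05 in edgeR, as were 623 of all 6471 genes. DESeq2 called no member here either. The JAG2KO neutrophils were few, 167 and 224 cells, against 609, 645 and 643 in Scramble. T cell markers in them summed to 51.3 and 65.6 CPM in JAG2KO, against 17.3 to 39.3 CPM in Scramble, and macrophage markers to 780.0 and 432 CPM in JAG2KO, against 832 to 1026 CPM in Scramble.

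Migratory dendritic cells and regulatory T cells allowed fewer members to be fitted. In migratory dendritic cells Slfn2 and Slfn5 did not pass (0.10 ± 0.41 and 0.53 ± 0.44), where 0.0462% of 2166 genes passed. The 95% intervals were -0.70 to 0.90 and -0.33 to 1.4, and the values were -0.593 and -0.497 when JAG2KO 1 was left out. In regulatory T cells Slfn2 did not pass (-0.29 ± 0.37, 95% interval -1.02 to 0.44), where 0.167% of 2397 genes passed, and its value was 0.11 without JAG2KO 2. None of these members had an unadjusted p under 0.05 in edgeR, and DESeq2 called none. NK cells of the Scramble libraries were too few for a test.

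**Figure D3:**
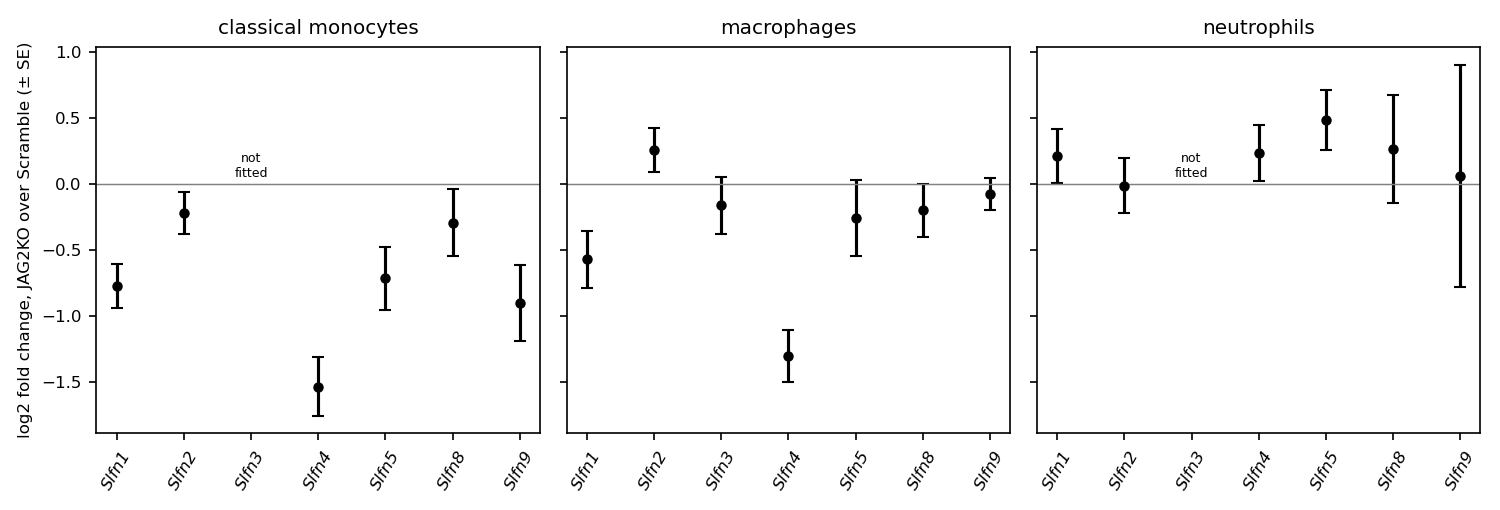
Log2 fold change of each Schlafen gene in JAG2KO over Scramble, with its standard error, in classical monocytes, macrophages and neutrophils (edgeR, 2 JAG2KO and 3 Scramble libraries). Slfn4 stands at -1.54 in monocytes, -1.31 in macrophages and 0.23 in neutrophils.

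Slfn5 in cDC1 rested on few cells. The class held 12 and 19 cells in JAG2KO and 11, 15 and 7 in Scramble, with 18 and 7 UMIs of Slfn5 in JAG2KO and 94, 93 and 37 in Scramble. This gave 120 and 38.1 CPM in JAG2KO, against 738, 583 and 441 CPM in Scramble, without overlap (exact two-sided permutation test, p = 0.2, the smallest that 10 splits allow), where 9.36% of 4359 genes had both JAG2KO libraries below all Scramble ones. A single cell held 84 of the 94 UMIs in Scramble 1 and another 30 of the 37 in Scramble 3. With the highest cell of each library left out, the levels were 49.0 and 29.9 CPM in JAG2KO, against 86.4, 403 and 99.3 CPM in Scramble. Classical monocyte markers in these cells summed to 246 and 414 CPM in JAG2KO, against 707, 840 and 536 CPM in Scramble, and the interferon targets to 784 and 708 CPM in JAG2KO, against 2246, 2276 and 1072 CPM in Scramble; the part of either in Slfn5 was not tested.

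The rest of the interferon pathway was read from a list of 42 ligand, receptor, signalling and target genes, of which 40 are in the gene table. In classical monocytes 6 of 39 tested fell in JAG2KO and none rose, where 0.693% of 9818 genes passed in either direction. The 30 targets had a median log2 fold change of -0.86, with all 30 negative, beside 0.00474 over all genes. The share of all genes with a negative value was not computed in any class. Among the 6 that fell were Isg20, an exonuclease (-1.25 ± 0.17), Isg15, a ubiquitin-like protein (-1.24 ± 0.21), Ifi213 (-1.26 ± 0.22) and Ifi44 (-1.44 ± 0.27, log2, SE). Their adjusted p-values in edgeR were 0.0156, 0.0308, 0.034 and 0.043. Isg15 had 146 and 118 CPM in JAG2KO monocytes, against 211, 365 and 329 CPM in Scramble monocytes, without overlap. How many of all genes separate in this way was not computed. The number of calls was 26 without JAG2KO 1, 1 without JAG2KO 2, 2 without Scramble 1, 1 without Scramble 2 and 0 without Scramble 3. Irf7, the factor that amplifies the response, had a value of -1.12 (edgeR, adjusted p = 0.0716) and Ifit3 -1.63 (0.0814).

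In macrophages 3 of 39 fell: Ifit2 (-1.4 ± 0.25), Ifit3 (-1.08 ± 0.20) and Ifit1 (-0.90 ± 0.17), members of a family that binds viral RNA (edgeR, adjusted p = 0.0441 for Ifit2 and 0.0487 for both others). Over all genes 2.14% of 14179 passed in either direction. The targets had a median of -0.51, with 29 of 30 negative, beside 0.00196 over all genes. The number of calls was 6 without JAG2KO 1 and 0 without JAG2KO 2 or any 1 Scramble library. Isg15 stood at -0.62 and Irf7 at -0.87, neither past the threshold. In neutrophils 1 of 35 rose, Rsad2, the antiviral protein viperin, by 0.98 ± 0.21 (adjusted p = 0.0167), with 944 and 808 CPM in JAG2KO, against 352, 605 and 392 CPM in Scramble. Isg15 stood at 0.81, Ifit3 at 0.46 and Irf7 at 0.15 in neutrophils, none past the threshold. The number of calls was 0 without Scramble 1 or 3, 2 without JAG2KO 1, 3 without Scramble 2, and 0 in cells of at least 1000 UMIs. The 26 targets tested there had a median of 0.46, and 3 were negative, beside a median of -0.0198 over all genes. Of all 6471 genes tested in neutrophils, 0.804% passed. None of 10 list genes passed in migratory dendritic cells or of 12 in regulatory T cells (edgeR), and DESeq2 called none in either class. Ddx58 and Herc6 in regulatory T cells were the list genes with an unadjusted p under 0.05 in edgeR. So were 124 of all 2397 genes tested in regulatory T cells. Whether the list differs between classes was not tested.

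**Figure D4:**
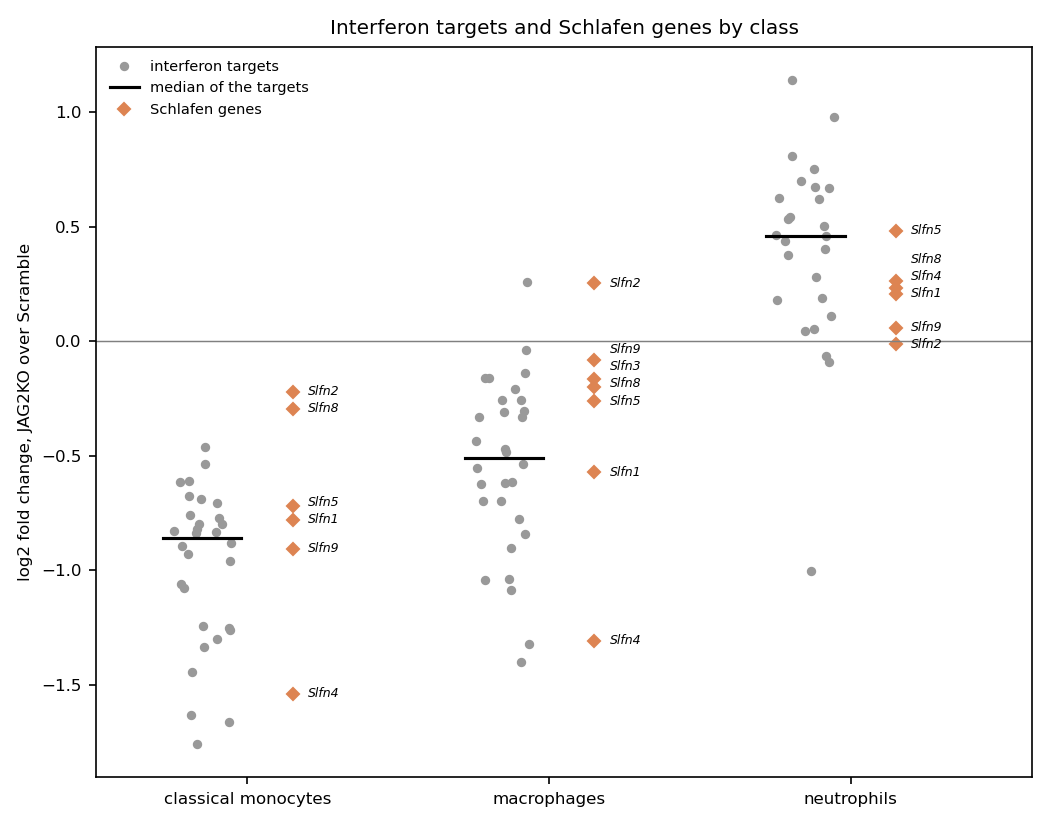
Log2 fold change in JAG2KO over Scramble of the interferon targets (grey, with their median as a black line) and of the Schlafen genes (orange) in classical monocytes, macrophages and neutrophils. The targets' medians are -0.86, -0.51 and 0.46, and Slfn4 lies among the lowest targets in monocytes and macrophages.

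Genes with levels most like each member were sought over 44 sums of 13 classes with at least 20 cells, among 11058 other genes, by the correlation of log2(CPM + 1). The sums of a library share its depth and free RNA, so r is a description. Slfn4 was closest to Tpd52 (r = 0.93), Tgm1 (0.91) and Trem3 (0.90). Slfn2 was closest to Ptpn1 (0.88), Diaph1 (0.87) and Snx20 (0.86), and Slfn1 to Cmip (0.81), Slfn2 (0.81) and Slc16a3 (0.80). Slfn5 was closest to Tor1aip1 (0.81), Slc15a3 (0.80) and Ell2 (0.80), Slfn8 to Nt5e (0.91), Itgal (0.86) and Ints6l (0.85), and Slfn9 to Ifi203 (0.85), Eif4g3 (0.82) and Ly6e (0.81). Slfn3 had r of at most 0.70, with Nup107, on sums with few UMIs.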

How the data were processed

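Values start from the deposited raw UMI counts, which cellranger 6.0.0 wrote per the file headers; the submitters' processing notes name Seurat and GRCm38 (mm10) without a role, and per the labels empty barcodes were removed before deposit. Groups and replicate numbers came from the labels. A barcode was kept when it reached 500 UMIs and 250 genes and no more than 10% of its UMIs were mitochondrial, and the 8% with the highest doublet score (a Scrublet-style score on 30 components of 2000 variable genes) were removed from each library. The members, markers and gene lists were chosen with earlier results of these data known.

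A cell was gated to the class with the highest share of its markers detected, with at least 2 different ones. Cells in which another class reached over 50% of that share were left out as mixed. UMIs were summed per library and class with at least 20 cells, so the library is the replicate. Sums were tested over all genes with edgeR 4.0.16 (R 4.3.3; quasi-likelihood, TMM, filterByExpr), with Benjamini-Hochberg adjustment and a threshold of 0.05. Classes were compared with macrophages, and interferon-high with low cells, with the library as a block; JAG2KO and Scramble without one. SE is the fold change over the root of the F statistic. The fits were checked on simulated data. Named genes were the members, up to 4 interferon list genes per class with the smallest p, Irf7, Isg15 and Ifit3 in any case, and the 3 genes most like each member; 1 further gene named by this rule is not reported here. Alternatives were DESeq2 1.42.0, no filter, doublets kept, 1000 UMIs, 3 markers, a replicate block, a stricter high class and each library left out. The 95% intervals are the fitted value ± 1.96 SE. Limits for a count of 0 are 3 counts and cover counting error only. Promoters are from RefSeq and gene positions from GENCODE M21. UMIs per 1000000 (CPM) were computed here from the deposited counts.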

Additional observations from a re-analysis of the deposited data

Results flagged for a closer look

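Slfn1 was lower in both JAG2KO libraries than in all Scramble libraries in classical monocytes and higher in both in neutrophils, with log2 ratios of the group means of -0.726 and 0.184. This drew attention because the libraries moved in opposite directions in both classes. The difference between the classes was not tested. In neutrophils the lower JAG2KO and the highest Scramble library were nearly level, and the fitted log2 fold change was 0.21 ± 0.21 (SE). An exact two-sided permutation test gave p = 0.2 in each class, the smallest that 10 splits allow. The share of all genes that separate in these ways was not computed in monocytes or neutrophils. Slfn1 was likewise lower in cDC1, with a log2 ratio of -2.51, against 0.184 in neutrophils, on 1 and 2 UMIs in JAG2KO cDC1 and 8, 12 and 1 in Scramble cDC1; this difference was not tested. Slfn5 was lower in cDC1, with -2.90, and higher in neutrophils, with 0.46, and this difference was not tested either.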

How the results depend on the processing

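Of the values for single members, 274 of the 300 recomputed for classes against macrophages and 130 of the 136 for interferon-high against low cells kept their direction and their side of the threshold. For JAG2KO against Scramble 213 of 245 stayed as they were, 16 changed sign where a test was run, and 16 moved by more than the spread between libraries where none was. No paired design was assumed, although JAG2KO and Scramble share the numbers 1 and 2. The deviations of same-numbered libraries from their group means correlated at 0.129 and 0.176 in macrophages. They correlated at 0.00869 and 0.055 in monocytes and at 0.018 and -0.028 in neutrophils. With 2 JAG2KO libraries, the deviation of 1 is the mirror image of the other, so these values cannot decide whether libraries are paired. With the replicate number as a block, the JAG2KO comparison called 191 genes in monocytes (68 without it), 1166 in macrophages (304), 3 in migratory dendritic cells (1) and 16 in regulatory T cells (4), and 16, 5 and 0 interferon list genes in monocytes, macrophages and neutrophils (6, 3 and 1); Slfn2 turned to -0.0459 in migratory dendritic cells and Slfn9 to -0.0587 in neutrophils. With no filter on low counts the calls were 543 in monocytes, 1214 in macrophages, 14 in migratory dendritic cells, 81 in neutrophils (52) and 12 in regulatory T cells, the interferon list calls 30 in monocytes and 16 in macrophages, monocytes against macrophages gave 6398 (4153), and Slfn9 turned to -0.0351 in neutrophils. DESeq2 called 145, 1132, 2, 29 and 1 genes in monocytes, macrophages, migratory dendritic cells, neutrophils and regulatory T cells, 14 list genes in monocytes and 14 in macrophages, and 1121 and 150 genes between interferon-high and low macrophages and neutrophils (2090 and 287). With doublets kept, monocytes gave 120 genes and 10 list genes, and Slfn2 was -0.118 in migratory dendritic cells. A gate of 3 markers gave 120 genes and 12 list genes in monocytes and 0 genes in migratory dendritic cells, with Slfn2 at -0.0466 there and 0.141 in neutrophils, and Slfn5 at 0.0861 in regulatory T cells against macrophages. Cells of at least 1000 UMIs gave 0 list genes in neutrophils. Macrophages without monocyte or neutrophil marker UMIs, chosen after seeing the data, gave 635 genes and 5 list genes for JAG2KO and 561 genes between high and low cells. The cause of these shifts was not tested.

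With 1 library left out at a time, the JAG2KO calls ranged from 18 to 251 in monocytes, 4 to 427 in macrophages, 1 to 7 in migratory dendritic cells and 3 to 16 in regulatory T cells, with the fit resting on the Scramble spread where 1 JAG2KO library was left. List calls ranged from 0 to 26 in monocytes, 0 to 6 in macrophages, 0 to 3 in neutrophils and 0 to 1 in regulatory T cells. Calls between high and low neutrophils ranged from 129 to 270, and members called against macrophages from 2 to 4 in migratory dendritic cells, 1 to 3 in other T cells and 1 to 4 in regulatory T cells. Values that changed sign were those of Slfn2 (-0.593 to 0.669) and Slfn5 (-0.497 to 1.07) in migratory dendritic cells, of Slfn2 (-0.22 to 0.147), Slfn8 (-0.618 to 0.867) and Slfn9 (-5.88 to 0.921) in neutrophils, of Slfn2 in regulatory T cells (-1.13 to 0.11), of Slfn2 in monocytes (-0.513 to 0.00869), of Slfn2 (-0.0758 to 0.517), Slfn3 (-0.466 to 0.072), Slfn5 (-0.879 to 0.165), Slfn8 (-0.554 to 0.0755) and Slfn9 (-0.22 to 0.0419) in macrophages, and of Slfn9 in monocytes against macrophages (-0.0323 to 0.262). Depth limits Slfn3 in every class, the members in cDC1 and NK cells, and all values of JAG2KO 2.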
